A study of Mus musculus with 3 samples.

Results

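The sites described here are meiotic recombination hotspots that a humanized PRDM9 protein activates in mouse testis and that carry its histone mark on both homologous chromosomes, but unequally. The animals were F1 hybrid males with 1 chromosome set of each parent strain, C57BL/6J (called B6) and CAST/EiJ (called CAST). The strains differ at many single bases, which lets signal be divided between the homologues. Per the labels, every animal carried the humanized allele of Prdm9 (HUM) together with the CAST allele, and there was no other genotype for comparison. The DMC1 ChIP-seq library came from a 10-week-old male and the H3K4me3 ChIP-seq library from an adult male, both from whole testis, with 1 library of each. The table credits the H3K4me3 reads to an earlier study, and whether they are those of this library is not stated. Members are autosomal sites that the authors assigned to the HUM allele, that overlap no PRDM9-independent H3K4me3 peak, and whose H3K4me3 share on the B6 homologue (the B6 share: signal on B6 divided by signal on both homologues) was at least 0.1 and under 0.3, or over 0.7 and at most 0.9. This gave 2257 of the 24586 hotspots in the series, of which 1137 were skewed to the B6 homologue and 1120 to the CAST homologue. They made up 27.9% of the 8091 HUM sites that passed the same filters and had an H3K4me3 share. The H3K4me3 share chose the members, so its values below are a description. DMC1 comes from a separate library, and its values did not enter the limits on the share. Every site of the series is a DMC1 hotspot, however, with a DMC1 signal of at least 7.50. Marked sites without a DMC1 hotspot are therefore absent, and how this affects DMC1 signal and its ratio to H3K4me3 was not tested.

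PRDM9 is a zinc-finger methyltransferase of meiotic cells that binds DNA motifs and places H3K4me3 on the flanking nucleosomes. SPO11 then cuts DNA at some of the marked sites, and the recombinase DMC1 coats the resected single strands that search the homologue for a repair template. Where the strains differ within a motif, PRDM9 may bind one homologue better than the other, and a hotspot then becomes asymmetric. Of each site the data give a DMC1 signal, an H3K4me3 signal and the B6 share of each mark. The DMC1 signal is an intensity from the authors' peak caller and the H3K4me3 signal an estimate by the authors. How many reads lie behind either is unknown. Since each assay has 1 library, differences could not be set against replicate spread, and no p-value was computed. The 95% intervals of medians are exact binomial intervals over sites, and those of percentages are exact Clopper-Pearson intervals. They describe the spread among the sites of these libraries and not among animals.

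Sequence was at hand for 3 members, those whose DMC1 centre fell in a RefSeq promoter window, taken from 250 bases before to 50 after a gene start (GRCm38.p6, the build of mm10). They are printed as examples chosen only by that position, and they do not show what is typical of partly skewed hotspots. Each is given 5′ to 3′ on the strand of its gene, with the 21 bases around the centre in capitals. The letters are those of the B6 reference, so the bases at which CAST differs are not shown. All 3 genes are annotated as long noncoding RNAs.
Gm33934, chr6:101271686-101271985, plus strand: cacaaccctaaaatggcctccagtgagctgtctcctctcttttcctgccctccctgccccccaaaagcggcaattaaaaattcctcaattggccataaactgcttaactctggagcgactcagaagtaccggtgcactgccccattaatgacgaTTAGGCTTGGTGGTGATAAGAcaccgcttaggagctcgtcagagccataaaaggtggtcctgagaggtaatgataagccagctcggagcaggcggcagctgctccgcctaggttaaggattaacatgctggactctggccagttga
A530006G24Rik, chr2:147710443-147710742, plus strand: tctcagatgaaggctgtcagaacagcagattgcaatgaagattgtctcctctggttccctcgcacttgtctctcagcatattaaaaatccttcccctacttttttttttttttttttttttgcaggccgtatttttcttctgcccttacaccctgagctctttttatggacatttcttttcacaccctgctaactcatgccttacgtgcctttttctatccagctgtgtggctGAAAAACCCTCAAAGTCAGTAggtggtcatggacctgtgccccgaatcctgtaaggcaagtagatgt
Gm41848, chr19:42397502-42397801, minus strand: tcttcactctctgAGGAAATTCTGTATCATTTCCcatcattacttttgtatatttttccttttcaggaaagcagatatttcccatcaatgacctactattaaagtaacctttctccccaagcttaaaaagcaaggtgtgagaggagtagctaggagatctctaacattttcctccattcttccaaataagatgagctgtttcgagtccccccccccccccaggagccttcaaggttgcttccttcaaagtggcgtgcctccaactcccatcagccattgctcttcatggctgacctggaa
The site at Gm33934 had a DMC1 signal of 185, a DMC1 B6 share of 1 and an H3K4me3 B6 share of 0.899. At A530006G24Rik the DMC1 signal was 35.6, and its B6 share of 0.565 was less skewed than the H3K4me3 share of 0.704. Gm41848 was the member skewed to CAST, with a DMC1 signal of 34.0 and B6 shares of 0.0556 for DMC1 and 0.119 for H3K4me3. The 13-letter motif known for human PRDM9 was searched on both strands. It was found in 1 of the 3 windows, at bases 49 to 61 of Gm33934 as CCtCCcTgcCCcC (fixed letters in capitals), with its middle 110 bases before the DMC1 centre. The windows are not centred on the sites. The DMC1 centre is base 165 of the window at Gm33934, 244 at A530006G24Rik and 24 at Gm41848. Bases beyond the windows were not searched, so the lack of a match at A530006G24Rik and Gm41848 covers only part of their surroundings. Among all HUM sites that passed the filters, 17 had their centre in such a window and 4 of these had a match, against 0 of 26 CAST-allele sites. A site can lie in several overlapping windows. Counted by window, a match was found in 10 of 24 windows with a HUM site, all from those 4 sites, and in 0 of 28 with a CAST-allele site. Of the 32817 promoter windows of this length, 6.29% held a match.

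DMC1 was far more one-sided than H3K4me3 in both directions. Members skewed to B6 had a median H3K4me3 share of 0.819 but a median DMC1 share of 0.9375 (95% interval 0.933 to 0.941, 1095 sites with a DMC1 share). Members skewed to CAST had a median H3K4me3 share of 0.188 and a median DMC1 share of 0.0526 (0.0488 to 0.0571, 1091 sites). The groups formed narrow bands, with quartiles of the DMC1 share at 0.870 and 0.972 in the first and at 0.0241 and 0.107 in the second. A DMC1 share was not given for 42 members skewed to B6 and 29 skewed to CAST. At HUM sites marked on both homologues (H3K4me3 share 0.3 to 0.7, 4656 sites) the median DMC1 share was 0.438, under the H3K4me3 share of 0.506.

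A large part of the sites that were partly skewed in H3K4me3 were nearly exclusive to 1 homologue in DMC1. Of the members skewed to B6, 710 of 1095, or 64.8% (61.9% to 67.7%), had a DMC1 share over 0.9, against 17.4% of all HUM sites with a DMC1 share. Of those skewed to CAST, 795 of 1091, or 72.9% (70.1% to 75.5%), had one under 0.1, against 19% of all HUM sites. The percentage was lower for B6 than for CAST, with a difference of -8.03 points. DMC1 was more one-sided than H3K4me3 at 85.4% of members skewed to B6 and at 89.5% of those skewed to CAST. Over all HUM sites with both shares, 79.1% had a DMC1 share further from 0.5 than the H3K4me3 share, on either side. DMC1 stayed within the range of partial skew that H3K4me3 had at 293 members skewed to B6 and 226 skewed to CAST. The deposited DMC1 share was entirely on the favoured homologue at 85 members skewed to B6 and 66 skewed to CAST, or 7.76% and 6.05%. A DMC1 share of 1 was found at 2.15% and a share of 0 at 1.6% of all HUM sites. Among sites marked on 1 homologue only, DMC1 was entirely on it at 10.6% (B6) and 5.96% (CAST).

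**Figure D1:**
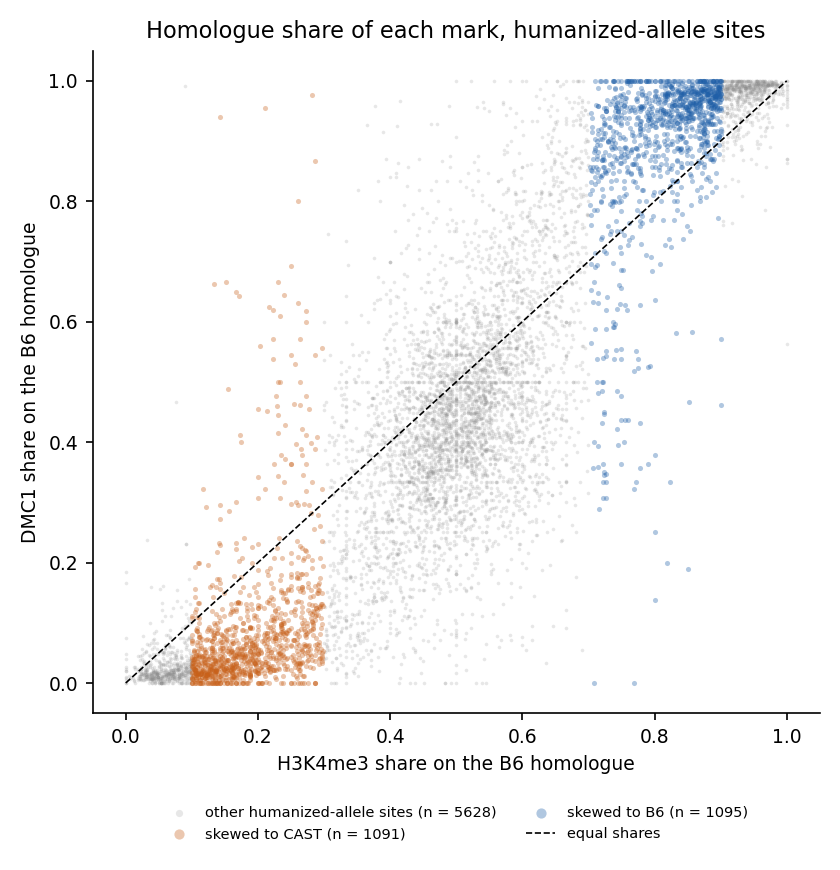
Share of each mark on the B6 homologue at humanized-allele sites with both shares, 1 point per site, with H3K4me3 on the x axis and DMC1 on the y axis. Most members skewed to B6 (blue) lie above the dashed line of equal shares and most skewed to CAST (orange) below it, with medians of 0.9375 and 0.0526 in DMC1.

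The DMC1 share followed the degree of skew in H3K4me3. On the B6 side its median rose from 0.857 (0.843 to 0.875) where the H3K4me3 share was between 0.7 and 0.75, through 0.911 and 0.945, to 0.963 (0.958 to 0.969) between 0.85 and 0.9. On the CAST side it fell from 0.105 (0.0894 to 0.120) where the H3K4me3 share was 0.25 to 0.3, through 0.0789 and 0.0455, to 0.0316 (0.0272 to 0.0364) at 0.1 to 0.15. Expressed as log2 odds of B6 against CAST, the median shares of members skewed to B6 with both values were 2.20 in H3K4me3 and 3.91 in DMC1. The members skewed to CAST had -2.14 and -4.17, and both-homologue sites had 0.03 and -0.36. Within each direction the Spearman correlation between the shares was 0.440 (B6, 1095 sites) and 0.427 (CAST, 1091 sites), as a description across sites that share their libraries.

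Sites of the CAST allele chosen by the same limits, 1471 skewed to B6 and 811 to CAST, had similar DMC1 shares at a given H3K4me3 share. In the most skewed bins their medians were 0.971 and 0.0323, beside 0.963 and 0.0316 at HUM sites. In the least skewed bin on the B6 side the CAST allele had 0.820 (0.808 to 0.844), and its interval met that of the HUM sites (0.843 to 0.875) only at its upper edge. Partial skew was also found at 21.3% of CAST-allele sites with an H3K4me3 share, compared with 27.9% at HUM sites.

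**Figure D2:**
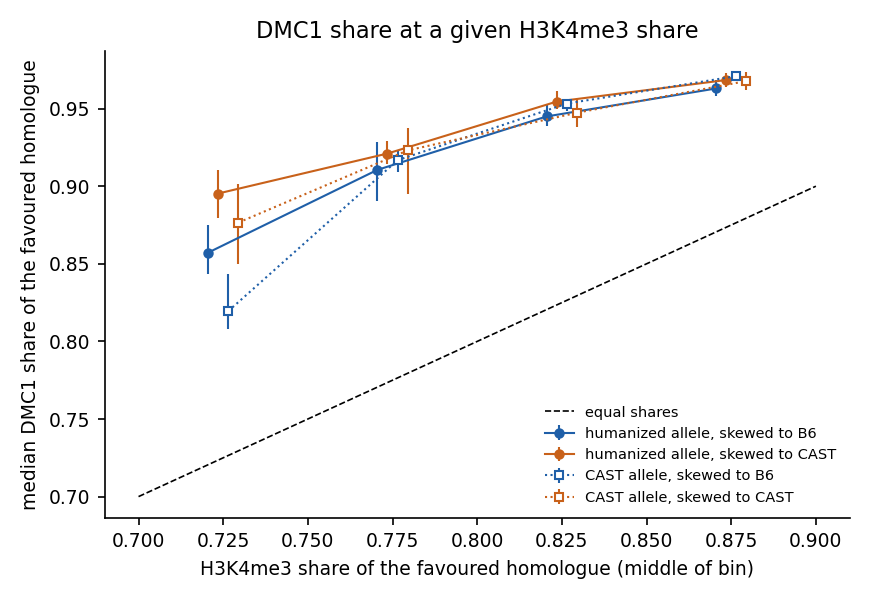
Median DMC1 share of the favoured homologue (y axis, with 95% binomial interval over sites) against its H3K4me3 share in bins of 0.05 (x axis), for the humanized allele (filled) and the CAST allele (open) in each direction. All medians lie above the dashed line of equal shares and rise with the H3K4me3 share.

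The one-sidedness of DMC1 was greater at members with more DMC1. When all members were divided into 4 groups of 25% by DMC1 signal, the median DMC1 share of members skewed to CAST was 0.125 (0.1 to 0.135) in the weakest group and 0.0294 (0.0251 to 0.0348) in the strongest. For members skewed to B6 it was 0.897 (0.886 to 0.909) in the weakest and 0.959 (0.95 to 0.967) in the strongest. The H3K4me3 share moved in the same direction but less, from 0.211 to 0.168 and from 0.800 to 0.837. Divided by H3K4me3 signal instead, the DMC1 share fell from 0.0714 to 0.0439 on the CAST side, whereas on the B6 side it was 0.929 in the lowest group, 0.949 in the third and 0.932 in the highest. The share and the signal of a mark come from the same library, and the part of read depth in these trends was not tested.

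Members were weaker than HUM sites marked on both homologues. The median DMC1 signal was 36.1 (quartiles 20.3 and 80.5) at members skewed to B6 and 46.3 (25.5 and 98.8) at those skewed to CAST, and 54.8 (upper quartile 133) at both-homologue sites. H3K4me3 was 7.28 (4.81 and 12.3), 7.39 (4.87 and 11.5) and 12.2 (6.82 and 22.3). The distributions overlapped widely, and the range of DMC1 among members was 7.625 to 647 on the B6 side and 7.85 to 742 on the CAST side. A DMC1 signal over 200 was reached by 84 members skewed to B6 and 113 skewed to CAST (7.39% and 10.1%), and by 16.2% of both-homologue sites. Together the members were 26.2% of the 8605 HUM sites that passed the filters, with or without a share, and carried 19.6% of their summed DMC1 and 18.2% of their summed H3K4me3. The H3K4me3 value of 77.1% of members also occurs at another site of the table, against 62.8% of all sites, so many sites share their value of this mark.

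**Figure D3:**
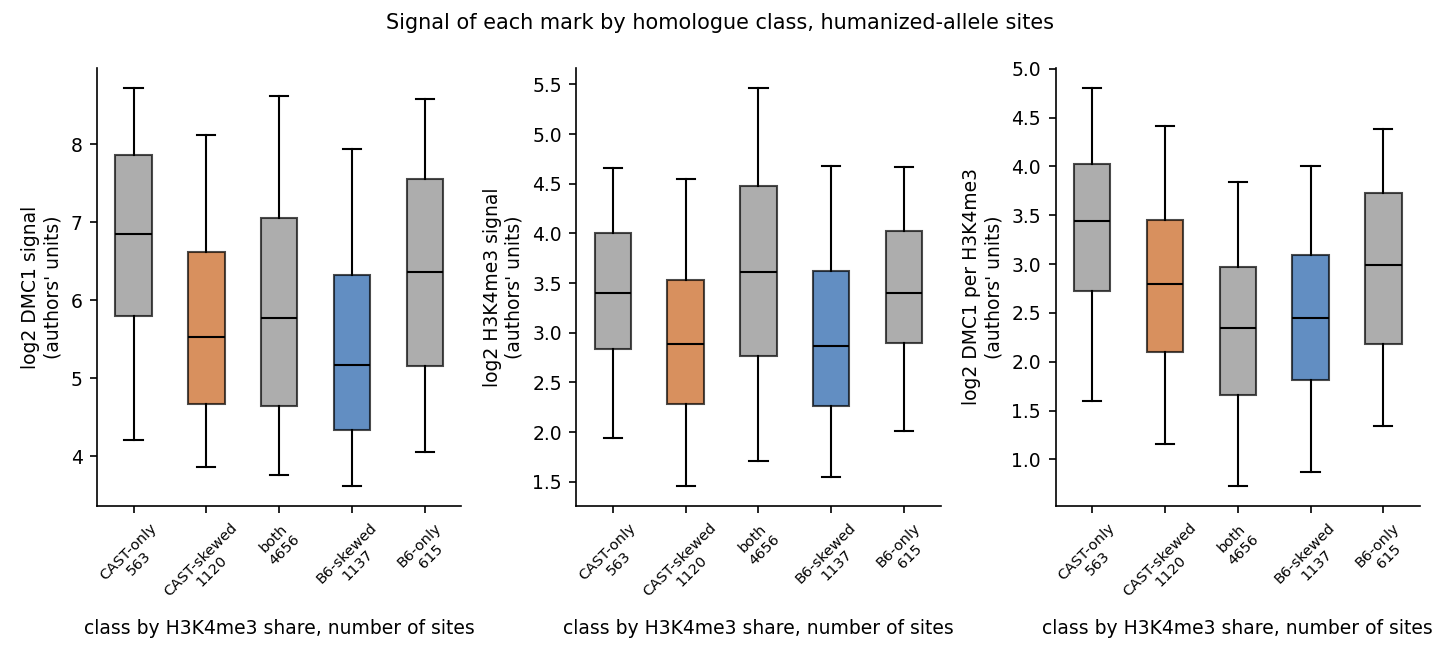
Log2 DMC1 signal, log2 H3K4me3 signal and log2 DMC1 per H3K4me3 (y axes, authors' units) by class of H3K4me3 share at humanized-allele sites. Boxes give the median and quartiles and whiskers the 5th and 95th percentiles of sites. Both skewed classes (orange, blue) have lower H3K4me3 medians than the other classes, and their DMC1 per H3K4me3 lies between that of both-homologue and 1-homologue sites.

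Relative to H3K4me3, members skewed to CAST had more DMC1 than both-homologue sites. The median ratio was 6.97 at members skewed to CAST and 5.07 at both-homologue sites, a log2 difference of 0.46, or 1.37-fold, positive on 19 of 19 autosomes (0.11 to 0.88). Members skewed to B6 had a median ratio of 5.47, a difference of 0.11 that was positive on 15 of 19 autosomes and smaller than the width of the intervals over sites. Within bins of equal H3K4me3 the differences in log2 DMC1 were 0.55 and 0.20. Sites marked on 1 homologue only had higher ratios still, 10.8 on CAST (share under 0.1, 563 sites) and 7.93 on B6 (share over 0.9, 615 sites). The ratio holds the H3K4me3 signal of the library that chose the members, and only sites that are DMC1 hotspots have one. When the classes were set by the DMC1 share instead, the differences from both-homologue sites were -0.039 and -0.26, so their direction depended on which mark defined the skew.

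The directions of skew differed in DMC1 and not clearly in H3K4me3. Members skewed to B6 had less DMC1 than those skewed to CAST, with a difference of -0.36 between median log2 values (1.28-fold lower), and the direction was the same on 15 of 19 autosomes. The difference in H3K4me3 was -0.02, negative on 7 and positive on 12 autosomes, and positive under 10 of 11 alternative settings. Without sites whose H3K4me3 value repeats it was 0.34, and the difference in DMC1 was then -0.12. The ratio of DMC1 to H3K4me3 was lower at members skewed to B6 by 1.27-fold (log2 difference -0.35), on 17 of 19 autosomes. It ranged from -0.99 on chromosome 16 to 0.14 on chromosome 3, and was also above 0 on chromosome 18. At matched H3K4me3, in 10 bins, log2 DMC1 differed by -0.34. With the classes set by the DMC1 share the difference in the ratio was -0.22. The lean to CAST was not particular to members. HUM sites marked on 1 homologue only had a median DMC1 of 82.6 on the B6 side and 115 on the CAST side. Their median ratios were 7.93 and 10.8. At both-homologue sites the median DMC1 was 24.2 on the B6 homologue and 31.2 on the CAST homologue.

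**Figure D4:**
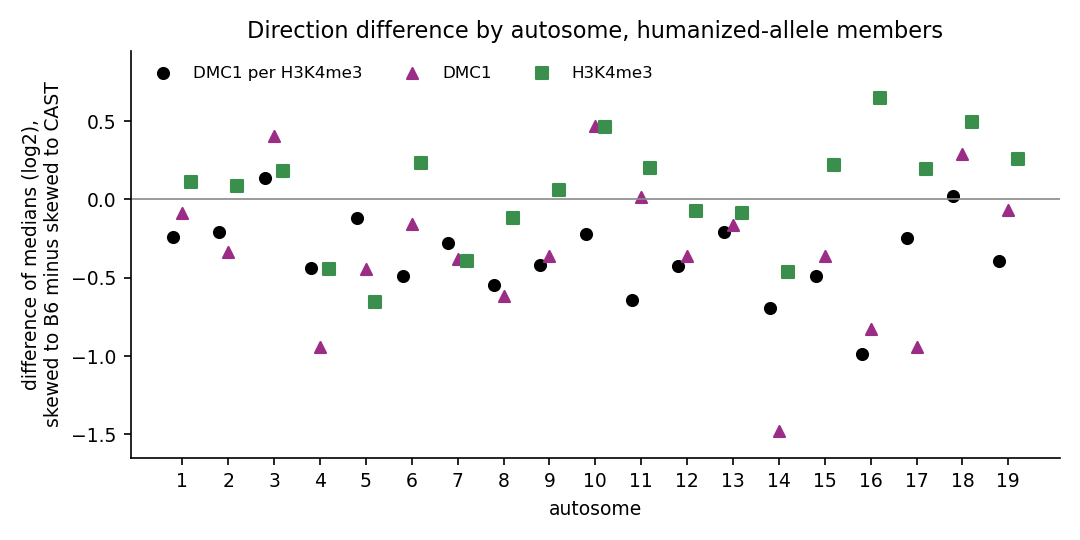
Difference of medians on the log2 scale, members skewed to B6 minus members skewed to CAST (y axis), for each autosome (x axis) and for DMC1 per H3K4me3 (circles), DMC1 (triangles) and H3K4me3 (squares). The ratio lies below 0 on 17 of 19 autosomes, and H3K4me3 on 7.

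Each signal was divided between the homologues by its share, to describe the members on each homologue. On the favoured homologue the median H3K4me3 was 6.21 (B6, interval 5.89 to 6.59) and 5.98 (CAST, 5.63 to 6.26), beside 6.24 and 6.11 on the same homologues of both-homologue sites. On the other homologue it was 1.28 in both directions, 4.77-fold lower than at both-homologue sites for CAST and 4.87-fold lower for B6. DMC1 on the favoured homologue was 32.5 on B6 and 43.5 on CAST, 1.34-fold and 1.39-fold higher than the 24.2 and 31.2 at both-homologue sites. On the other homologue DMC1 was only 2.29 (CAST) and 2.59 (B6), which is 13.7-fold and 9.37-fold lower. The share of H3K4me3 was fixed by the choice of members, so the contrast between homologues in that mark follows from it. Sites marked on 1 homologue only had a median H3K4me3 of 10.0 on that homologue, for B6 and for CAST, above both-homologue sites. With the classes set by the DMC1 share, DMC1 on the favoured homologue was no longer higher (log2 differences of -0.080 on B6 and -0.17 on CAST). That alternative fixes the DMC1 share, so its values on single homologues follow in part from the choice of sites. Without sites whose H3K4me3 value repeats, which left 517 members, the favoured homologue differed from both-homologue sites by -0.47 in log2 H3K4me3 on the CAST side and by -0.10 on the B6 side, and its DMC1 by 0.05 and 0.24.

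**Figure D5:**
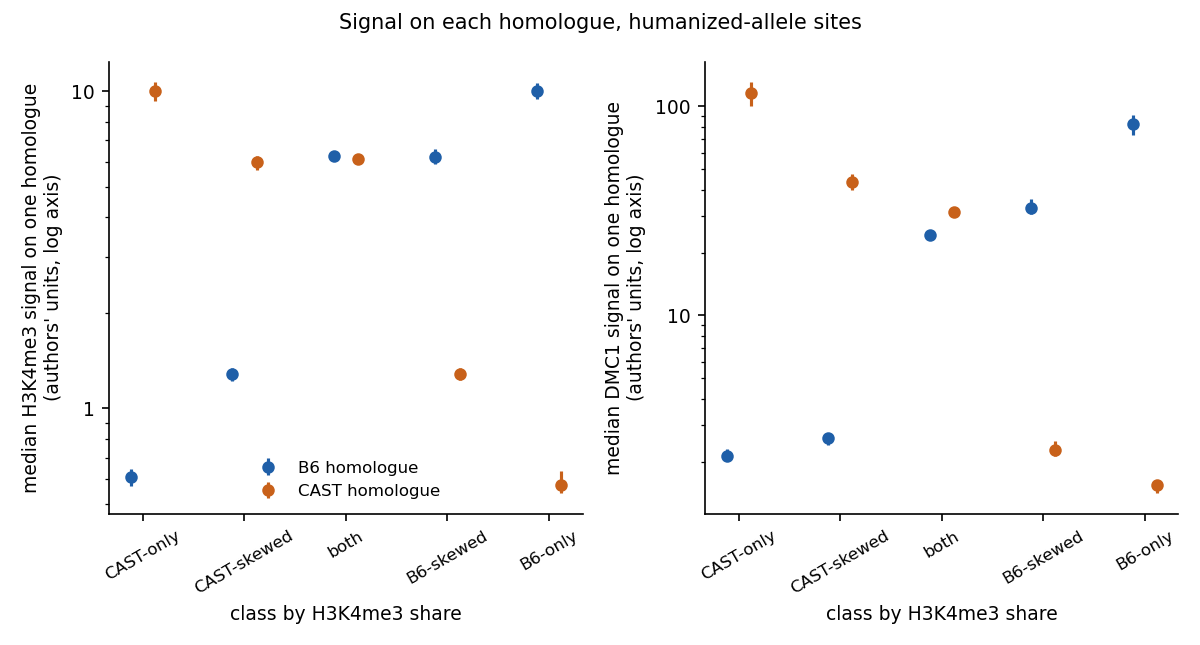
Median H3K4me3 (left) and DMC1 (right) signal on the B6 homologue (blue) and the CAST homologue (orange), in the authors' units on log axes, by class of H3K4me3 share. Bars are 95% binomial intervals over sites. In the skewed classes the favoured homologue has the H3K4me3 level of both-homologue sites, between 5.98 and 6.24, and the other homologue has 1.28.

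The contrast between directions was different for the CAST allele. Its sites skewed to B6 had a median DMC1 of 111 and those skewed to CAST 41.7, a log2 difference of 1.41 in favour of B6 on 19 of 19 autosomes, opposite in sign to the -0.36 of the HUM sites. H3K4me3 differed by 1.05 at CAST-allele sites and by -0.02 at HUM sites. In DMC1 per H3K4me3 the direction difference was 0.26 for the CAST allele and -0.35 for the HUM allele. The gap between the alleles was -0.61, with the same sign on 17 of 19 autosomes. At matched H3K4me3 the direction difference of the CAST allele was 0.08, and the gap was -0.41. Numbers also divided unlike, since 1471 of the 2282 partly skewed CAST-allele sites were on the B6 side, whereas the HUM members were split 50.4% to B6.

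Members lay on every autosome, from 59 on chromosome 19 to 176 on chromosome 2, and made up 22.9% (chromosome 11) to 31.9% (chromosome 10) of HUM sites with a share. The percentage skewed to B6 ranged from 38.9% on chromosome 13 to 57.6% on chromosome 19, with more B6 members on 8 autosomes and more CAST members on 11. Consecutive members on a chromosome had the same direction in 1120 of 2238 pairs, and at distances up to 100 kb in 141 of 286, or 49.3% (43.4% to 55.3%), and no excess of like or unlike neighbours was detectable. Median distance to the nearest hotspot of any class was 25.4 kb on the B6 side, 26.5 kb on the CAST side and 26.3 kb for both-homologue sites.

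Protein-coding genes held 1227 members, or 54.4% (52.3% to 56.4%), against 56.7% of all HUM sites. The percentage was 52.9% for members skewed to B6, 55.9% for those skewed to CAST and 57.9% at both-homologue sites. The members fell in 1072 genes, of which 125 held more than 1 and 66 held members of both directions. Arhgap26, Nckap5, Ptprt, a receptor tyrosine phosphatase, and Ttc39c each held 4, of 8, 11, 9 and 4 HUM sites. Those of Ttc39c were 3 skewed to CAST and 1 to B6. Camk1d, a calmodulin-dependent kinase, and Cdk14, a cyclin-dependent kinase, each held 3 members, all skewed to CAST, of 3 and 5 HUM sites. Aig1, Arhgap24 and Galnt2 each held 3 skewed to B6, of 4, 4 and 3 HUM sites. All 3 HUM sites of Aff1 were also members. Members were 26.2% of all HUM sites that passed the filters. These genes were named after their counts were seen, out of 26 genes that held 3 or more members. Genes tied at 3 were listed in alphabetical order only as far as Galnt2, so later ones are not named. Of the 125 genes with more than 1 member, 27 held only members skewed to B6 and 32 only members skewed to CAST.

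The strongest member skewed to B6 lay between genes, 183 kb from Lef1, a transcription factor of Wnt signalling (chromosome 3, 130927747 in mm10). It had a DMC1 signal of 647 with a B6 share of 0.895, close to the H3K4me3 share of 0.872. The second lay inside Thada (chromosome 17, 84383467; DMC1 646), with shares of 0.973 in DMC1 and 0.888 in H3K4me3. The third was 22.9 kb from Ttr, the thyroid hormone carrier transthyretin (chromosome 18, 20641306; DMC1 582), and its shares of 0.800 and 0.776 were also close. Inside Spag1, which acts in the assembly of ciliary dynein arms (chromosome 15, 36184324), DMC1 was 524 and its share 0.978, beyond the H3K4me3 share of 0.840. The fifth lay 567 kb from Snx16, a sorting nexin (chromosome 3, 11007481; DMC1 522), with shares of 0.869 and 0.724. All 5 had a DMC1 share above the H3K4me3 share, and 2 of them had one over 0.9.

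On the CAST side the strongest member lay 85.98 kb from Mgst1, a microsomal glutathione transferase (chromosome 6, 138242734), with a DMC1 signal of 742, a DMC1 share of 0.0138 and an H3K4me3 share of 0.166. It was followed by a site inside Etnk1, an ethanolamine kinase (chromosome 6, 143180331; DMC1 676), with shares of 0.0371 and 0.143. The third, 20.2 kb from Sdcbp, which encodes the scaffold protein syntenin (chromosome 4, 6345480; DMC1 619), went the other way. It had the highest H3K4me3 signal of any member, 74.4, with a share of 0.280, and its DMC1 share of 0.398 was the more balanced of the marks. Inside Septin11, a cytoskeletal GTPase (chromosome 5, 93129626; DMC1 563), the shares were 0.0142 in DMC1 and 0.114 in H3K4me3. The fifth lay 1.98 kb from Smad4, a mediator of TGF-beta signalling (chromosome 18, 73705774; DMC1 558), with a DMC1 share of 0.0101 and an H3K4me3 share of 0.152.

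Among members with H3K4me3 at or above the members' median of 7.32, the ratio of DMC1 to H3K4me3 varied widely in both directions. The highest on the CAST side were inside Utrn, a relative of dystrophin (chromosome 10, 12845691; ratio 46.3), inside Psd3 (chromosome 8, 68089108; 39.9) and at the site near Smad4 (38.9). The highest on the B6 side were those inside Spag1 (36.9), Atp5c1, a subunit of ATP synthase (chromosome 2, 10073393; 35.9), and Cwc22, a splicing factor (chromosome 2, 77939409; 34.1). These 6 sites had DMC1 on the favoured homologue almost alone, with B6 shares of at most 0.0351 on the CAST side and at least 0.978 on the B6 side. The lowest ratios on the B6 side lay 2033 kb from Pik3c3, a phosphoinositide kinase of autophagy (chromosome 18, 28232283; 0.600), and inside Fcho2, an endocytic protein (chromosome 13, 98738297; 0.742), and Kpna1, a nuclear import receptor (chromosome 16, 36008561; 0.795). Their DMC1 shares of 0.800 to 0.889 still favoured B6. On the CAST side the lowest lay 164 kb from Sptlc3, a subunit of serine palmitoyltransferase (chromosome 2, 139329757; 0.347, no DMC1 share), 13.3 kb from Dennd3 (chromosome 15, 73499296; 0.736) and 74.5 kb from Sox2, a pluripotency transcription factor (chromosome 3, 34575534; 0.755). The sites near Dennd3 and Sox2 had DMC1 shares of 0.939 and 0.663 against H3K4me3 shares of 0.142 and 0.134, so that the marks lay on opposite homologues.

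Such disagreement in direction was rare. DMC1 was on the other side of 0.5 from H3K4me3 at 42 of 1095 members skewed to B6, or 3.84% (2.78% to 5.15%), and at 26 of 1091 skewed to CAST, or 2.38% (1.56% to 3.47%), compared with 19.7% of all HUM sites, where sites near equal shares are included. The strongest on the B6 side was inside Chd9, a chromatin remodeller (chromosome 8, 91023198; DMC1 220), but with a DMC1 share of 0.482 it was close to balance. The next lay inside Arhgef28 (chromosome 13, 98095866; DMC1 126), with a DMC1 share of 0 against 0.708 in H3K4me3, and inside Sox6, a transcription factor (chromosome 7, 115840735; DMC1 116), with 0.333 against 0.727. On the CAST side they lay 83.7 kb from Axin2, an inhibitor of Wnt signalling (chromosome 11, 109034508; DMC1 119, shares 0.610 and 0.233), 9.70 kb from Map3k9, a kinase (chromosome 12, 81790869; DMC1 111, 0.867 and 0.286), and inside Adarb2, of the RNA-editing deaminase family (chromosome 13, 8349871; DMC1 82.9, 0.693 and 0.25).

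The sites next to each limit, 1 on either side, are given as single values. Other sites had the same H3K4me3 share of 0.1, 0.3, 0.7 or 0.9, so a named site at such a value is 1 of several. No step at a limit can be read from them. Just inside the limit of 0.1 was a site in Nck2, an adaptor protein (H3K4me3 share 0.1, DMC1 share 0.00896), and just outside one 12.6 kb from Septin9 (0.0995 and 0.0467). At the limit of 0.3 the site inside it, 285 kb from Cdh19, had 0.299 and 0.129, and the site outside it, in Atl1, had 0.3 and 0.6. At 0.7 the member in Kcnh7, a potassium channel gene, had 0.702 and 0.857, while the site outside, in Ubap2l, had 0.7 and no DMC1 share. At 0.9 the member 0.854 kb from Prmt6, an arginine methyltransferase, had 0.9 and 0.951, and the site outside, in Xylt1, had 0.901 and 0.982.

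The listed genes of meiotic recombination held HUM sites in small numbers, and whether these differ from those at other genes was not tested. For scale, 5415 of the 8605 HUM sites lay in or within 5 kb of the 20665 autosomal protein-coding genes. Of 33 autosomal genes of break formation and repair, 1 had a member in or within 5 kb of it, 4930432K21Rik, with a site that lies inside the neighbouring Nanos3 (chromosome 8, 84174846; DMC1 22.9, skewed to B6). This was 1 of the 8 HUM sites at these genes, and members were 26.2% of HUM sites in all, so counts this small say nothing particular about members. Of 15 genes that encode axis or synaptonemal complex proteins, Syce1, a central element protein, held 1 of the 4 HUM sites (chromosome 7, 140778738; DMC1 26.0), skewed to B6 in H3K4me3 (0.744) but not in DMC1 (0.421). The 14 long neuronal genes on autosomes held 11 members in 7 genes. This was 18.0% of their 61 HUM sites, against 26.2% over all HUM sites that passed the filters. Of these 11 members 9 were skewed to B6 and 2 to CAST, where 50.4% of all members were skewed to B6. The count is too small to read a lean of these genes from it. The strongest of them lay in Auts2 (chromosome 5, 131739647, DMC1 64.7) and was skewed to CAST. The next lay in Pcdh9, a protocadherin (chromosome 14, 93692492, DMC1 52.4), and Cntnap2, a neuronal adhesion protein (chromosome 6, 45787599, DMC1 32.2). Both were skewed to B6.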

How the data were processed

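One deposited table with 1 line per DMC1 hotspot was used. The submitters' processing notes name BWA and the mm10 build for both libraries, with version 0.7.15 listed for H3K4me3 and none for DMC1. Per the file headers, the DMC1 signal is an intensity from the authors' peak caller, and the H3K4me3 signal an estimate by the authors from reads credited to Li and colleagues, which the headers do not tie to the H3K4me3 library of this series. The deposited B6 share of each mark is a fraction of the signal on both homologues. Any scaling to depth was not given in the sources used here.

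Members, classes, medians and differences were computed with pandas 2.3.3, numpy 2.4.6 and scipy 1.17.1, on log2 values with no pseudocount. Matched comparisons used 10 bins of H3K4me3 with at least 5 sites of each class. The functions were tested on simulated data. Named sites were, in each direction, the 5 strongest in DMC1, the 3 highest and 3 lowest ratios among members at or above the median H3K4me3, the 3 strongest with DMC1 on the other side of 0.5, the sites next to each limit, and the 3 strongest of each gene list. Genes came from RefSeq (GRCm38.p6), whose table lacks strand and exons, and sites are given as inside a gene or by distance from one. Members and lists were chosen with earlier results of these data known. The MNase-seq library was not used here. With no genome at hand, the motif was searched in promoter windows only.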

Additional observations from a re-analysis of the deposited data

How the results depend on the processing

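Of 134 values recomputed under alternatives, 97 stayed within the interval over sites of the value reported. The sign was opposite to the reported one at 14, of which 10 were among the 11 alternatives for the difference in H3K4me3 between directions, whose own interval includes 0. The other 4 came from classes set by the DMC1 share. The differences between directions in DMC1, in DMC1 per H3K4me3 and at matched H3K4me3 kept their sign under all alternatives run. So did the gap in DMC1 per H3K4me3 to the CAST allele. All stayed within their intervals, but this is a weak check. The interval of a difference runs between the outer ends of the intervals of the values compared. The matched difference was given the interval width of the ratio. The gap of -0.607 had an interval of -0.934 to -0.330. With classes laid out around the median H3K4me3 share it was -0.921 and still counted as within. The median DMC1 share of members skewed to B6 was 0.95 with inner limits of 0.25 and 0.75, 0.917 with 0.35 and 0.65, 0.953 with outer limits of 0.05 and 0.95, 0.931 without repeated H3K4me3 values and 0.889 as a mean. For members skewed to CAST it was 0.0444, 0.0667 and 0.0417 with these limits, 0.0931 as a mean and 0.0432 above the median H3K4me3 of HUM sites. That filter also gave 52.5% of members skewed to B6, -15.5 points between directions in the percentage with DMC1 nearly on 1 homologue, and 0.22 for the ratio of members skewed to B6 minus both-homologue sites. With the wider outer limits the ratio differences from both-homologue sites were 0.21 (B6) and 0.59 (CAST). Classes set by the DMC1 share gave 1680 members, 41.9% of them skewed to B6. By construction their DMC1 shares were then 0.818 and 0.205 and the difference in the percentage nearly on 1 homologue was 0. Their ratios differed from both-homologue sites by -0.26 (B6) and -0.039 (CAST), and DMC1 on the favoured homologue by -0.080 and -0.17; the cause was not tested. Without repeated values H3K4me3 differed between directions by 0.34, and the cause was not tested. With 5 kb flanks 61.0% of members were in genes. Alternatives for the signal on single homologues were chosen after seeing the data. The motif search in a wider window was not run. No paired analysis was possible because each assay has 1 library. The unknown number of reads limits the shares of weak sites.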
